A study of Rattus norvegicus with 4 samples.

Results

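The miR-17-92 and miR-106b-25 clusters were described in small RNA sequencing of rat costochondral chondrocytes and of the matrix vesicles (MVs) that these cells leave in their extracellular matrix. The members were all products in the deposited count table that are numbered miR-17, miR-18, miR-19, miR-20, miR-25, miR-92, miR-93, miR-106 or miR-363, with any letter or arm suffix, and counts of equal names were added together. This gave 27 products of the 740 mature miRNA names in the table, from 15 precursor genes. Of these products, 9 were the arms usually taken as the guides of both clusters and 18 were other products, namely the opposite arms and the members of the related X-linked cluster and of Mir92b. Reads were found for 24 of the 27 products in at least 1 library and for 15 in all 4, while miR-19b-2-5p, miR-363-5p and miR-92a-2-5p had no read.

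The 4 libraries were RC-cells, the less mature chondrocytes from the resting zone, RC-MVs, the vesicles of their cultures, GC-cells, the more mature chondrocytes from the growth zone, and GC-MVs, the vesicles of those cultures. All came from confluent cultures at passage 4, grown from rib cartilage of male Sprague Dawley rats in medium with ascorbic acid and fetal bovine serum, which by the study's methods had been cleared of its own vesicles. MVs were released from the cell layer with trypsin and collected by differential centrifugation. Each group was 1 library, no treatment or genetic change is stated for any group, and passaged monolayers stand in for the zones of the growth plate.

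The miRNA reads numbered 6517329 for RC-cells, 1108821 for RC-MVs, 7414467 for GC-cells and 982543 for GC-MVs, so that the deepest was 7.55 times the smallest. A value is given as the percent of all miRNA reads of its library. Where 4 values follow each other without names, they stand for the cells and MVs of the resting zone and then for the cells and MVs of the growth zone. A share of 3 reads, used here as the floor, was 4.60e-05% in RC-cells and 0.000271% in RC-MVs, against 4.05e-05% in GC-cells and 0.000305% in GC-MVs. Intervals are at the 95% level (Wilson for shares, exact Clopper-Pearson for ratios of percents), and they cover counting error only, since each group was 1 library. The sources used here do not say how PCR copies of a molecule were handled. If these were counted as separate reads, the intervals are too narrow even for counting error. With 1 library per group no difference within a zone has a replicate check, and no p-value was computed. A ratio was called different at 2-fold in either direction where both libraries had at least 1 read.

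The labels were set against lists of marker miRNAs. The 6 cartilage miRNAs on the list summed to 0.526% in RC-cells and 1.00% in RC-MVs, against 0.636% in GC-cells and 0.841% in GC-MVs, led by miR-140-3p, while miR-675-5p was at 0 in all 4 libraries. Of the 4 with reads in both libraries of a zone, 1 was 2-fold higher and 2 were lower in RC-MVs, beside 33.6% and 30.4% of all miRNAs tested. In GC-MVs 0 were higher and 2 lower, beside 32.1% and 25.2%. The lower ones were miR-140-5p, 8.37-fold in RC-MVs and 3.75-fold in GC-MVs, and miR-455-5p, 2.66-fold and 2.57-fold. The 8 listed blood and serum miRNAs that the table holds summed to 0.00175% in RC-cells and 0.00169% in GC-cells but to 0.490% in RC-MVs and 1.33% in GC-MVs. Of those with reads in both libraries, 8 of 8 were 2-fold higher in RC-MVs and 7 of 7 in GC-MVs, to be read beside the same shares of all miRNAs, and only miR-223-3p was at 0 in a library, that of GC-cells. The 4 skeletal muscle miRNAs summed to 0.000368% in RC-cells and 0.00171% in their MVs, against 0.000715% in GC-cells and 0.00733% in GC-MVs, with 1 of 1 tested 2-fold higher in RC-MVs and 4 of 4 in GC-MVs. In the same order of libraries, the endothelial pair summed to 0.0266%, 0.0158%, 0.0223% and 0.0640%. Its miR-126a-3p had a ratio of 0.608 in RC-MVs and was 2.97-fold higher in GC-MVs. Its miR-126a-5p was 2.49-fold lower in RC-MVs (1.22 to 5.90) and had a ratio of 1.15 in GC-MVs (0.604 to 2.03). The 3 neural miRNAs likewise summed to 0.0467%, 0.0161%, 0.0419% and 0.0149%, with miR-124-3p at 0 throughout. Both that had reads were 2-fold lower in MVs of each zone, beside 30.4% of all miRNAs in RC-MVs and 25.2% in GC-MVs. The part of such RNA in the differences between MVs and cells given here was not tested. Less RNA per vesicle and fewer vesicles of a kind cannot be told apart in these bulk libraries.

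Each miRNA gene is transcribed as a longer RNA from which a hairpin is cut, and the hairpin gives a 5p and a 3p arm, of which usually one is kept in the silencing complex as the guide. The guide pairs with target mRNAs mainly through its seed, bases 2 to 8, so that miRNAs with equal seeds are grouped as a family. The hairpins of miR-17-92 are cut from a common primary transcript that is induced by MYC and E2F factors, promotes proliferation and survival, and is needed for normal skeletal growth. The miR-106b-25 hairpins lie within Mcm7, the gene of a subunit of the replicative DNA helicase. MVs are membrane particles anchored in the cartilage matrix that are known for starting mineral formation.

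In the RefSeq annotation of the rat assembly GRCr8, the order on chromosome 15 was Mir17, Mir18a, Mir19a, Mir20a, Mir19b1 and Mir92a1. Mir25, Mir93 and Mir106b lay on chromosome 12, inside Mcm7 and on its strand. The paralog cluster on chromosome X held Mir363, Mir92a2, Mir19b2, Mir20b and Mir106a, and Mir92b stood alone on chromosome 2. The mature sequences of the 27 products were all found in RefSeq, and those of the guide arms are shown because members of a family with nearly equal sequences differed in how far they were found in MVs. Capitals mark the seed, and all are written 5′ to 3′ under their full names, of which rno (the rat) is left out elsewhere. The miR-17 seed was shared by 4 guide arms, and that of miR-18a-5p differs from it by a single base.
rno-miR-17-5p: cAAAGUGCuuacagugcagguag
rno-miR-20a-5p: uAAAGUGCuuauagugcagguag
rno-miR-93-5p: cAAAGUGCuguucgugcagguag
rno-miR-106b-5p: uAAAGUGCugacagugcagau
rno-miR-18a-5p: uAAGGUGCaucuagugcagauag
The miR-19 seed was shared by both miR-19 products, and these differ from each other only by U11C (miR-19a-3p to miR-19b-3p, with positions counted from 1 at the 5′ end).
rno-miR-19a-3p: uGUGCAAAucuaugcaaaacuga
rno-miR-19b-3p: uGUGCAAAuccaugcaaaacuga
The miR-92 seed was carried by a guide arm from each cluster.
rno-miR-92a-3p: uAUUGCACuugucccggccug
rno-miR-25-3p: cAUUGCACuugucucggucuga
Opposite arms of a hairpin have seeds of their own, and those with the most reads in MVs were miR-106b-3p and miR-92a-1-5p.
rno-miR-106b-3p: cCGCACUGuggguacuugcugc
rno-miR-92a-1-5p: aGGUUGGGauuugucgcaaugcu

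The 9 guide arms together took a small part of the miRNA pool. RC-cells had 10945 of their reads, RC-MVs 1221, GC-cells 11355 and GC-MVs 1656, which is 0.168%, 0.110%, 0.153% and 0.169% of miRNA reads. The lowest share was that of RC-MVs, and the shares of the other libraries lay close together. The guide arms of miR-17-92 made up 0.0755% in RC-cells and 0.0263% in RC-MVs, against 0.0635% in GC-cells and 0.0482% in GC-MVs. For the guide arms of miR-106b-25 the shares were 0.0924%, 0.0838%, 0.0896% and 0.120% in the same order. Both MV libraries thus held less of the miR-17-92 guides than their cells, while the miR-106b-25 guides were slightly lower in RC-MVs but above their cells in GC-MVs. The direction of the miR-106b-25 guides in RC-MVs rests on which arm of the Mir106b hairpin is counted. With miR-106b-3p, the arm with more reads, in place of miR-106b-5p, their ratio of RC-MVs over RC-cells was 1.33 and not 0.907.

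**Figure D1:**
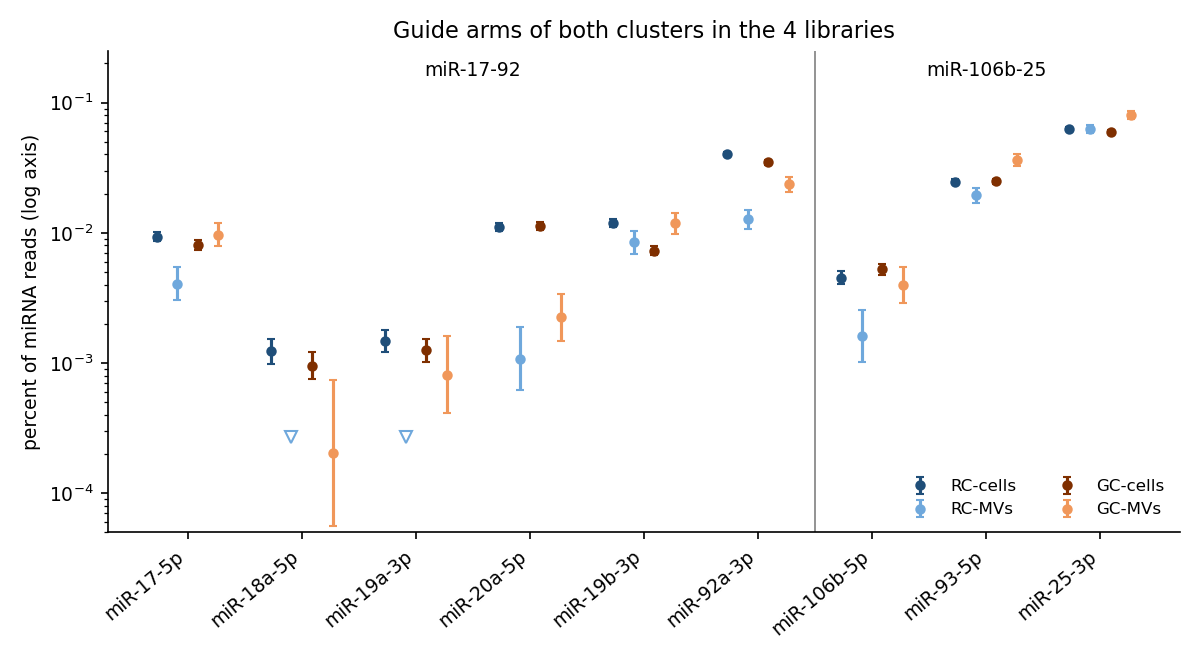
Percent of miRNA reads (log axis) of the 9 guide arms, with 1 library each of cells and MVs from both zones. Bars are 95% Wilson intervals and open triangles mark the 3-read floor where no read was found. RC-cells and GC-cells lie within 2-fold of each other for each miRNA, and furthest apart for miR-19b-3p (1.64 times), while miR-20a-5p falls from 0.0111% to 0.00108% in RC-MVs and miR-25-3p stays near 0.0631%.

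Among the miR-17 seed family, which represses cell cycle inhibitors such as p21 (Cdkn1a), each of the 4 guide arms had similar shares in the cells of both zones, while its shares in MVs lay further apart. miR-17-5p was counted 608 times (0.00933%) in RC-cells and 45 (0.00406%) in RC-MVs, against 598 (0.00807%) in GC-cells and 95 (0.00967%) in GC-MVs. miR-20a-5p had 723 reads (0.0111%), 12 (0.00108%), 832 (0.0112%) and 22 (0.00224%) in that order. In the cells miR-20a-5p was thus above miR-17-5p, and in both MV libraries it was below it. miR-93-5p had 1614 reads (0.0248%), 215 (0.0194%), 1848 (0.0249%) and 354 (0.0360%), the highest share of the family in every library. miR-106b-5p had 295 reads (0.00453%), 18 (0.00162%), 390 (0.00526%) and 39 (0.00397%). It was lowest in RC-MVs, and GC-MVs came close to the cells.

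miR-18a-5p, which lies next to Mir17 and is known for targets in the TGF-beta pathway, had the fewest reads of the guide arms in both cell libraries and in GC-MVs. It had 80 reads (0.00123%) in RC-cells and none in RC-MVs, against 71 (0.000958%) in GC-cells and 2 (0.000204%) in GC-MVs. At the share of the cells, 13.6 reads would have been counted in RC-MVs, so that the depth there was enough to see a level like that of the cells.

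The miR-19 family has a seed of its own and is known for promoting cell survival. miR-19a-3p had 96 reads (0.00147%) in RC-cells and none in RC-MVs, against 93 (0.00125%) in GC-cells and 8 (0.000814%) in GC-MVs. miR-19b-3p, which has a locus in both the chromosome 15 and the X-linked cluster, had 781 reads (0.0120%), 94 (0.00848%), 542 (0.00731%) and 116 (0.0118%). In these counts miR-19b-3p exceeded miR-19a-3p in every library, and its share in RC-cells was 1.64 times that in GC-cells, the highest such ratio of the guide arms.

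The miR-92 seed family includes the most abundant guide arm of each cluster. miR-92a-3p was counted 2635 times (0.0404%) in RC-cells and 141 (0.0127%) in RC-MVs, against 2575 (0.0347%) in GC-cells and 231 (0.0235%) in GC-MVs. miR-25-3p had 4113 reads (0.0631%), 696 (0.0628%), 4406 (0.0594%) and 789 (0.0803%). It was the most abundant of the 27 products in all 4 libraries, with rank 81 among all miRNAs in RC-cells and 78 in RC-MVs, against 71 in GC-cells and 68 in GC-MVs. Levels of different miRNAs are compared here as shares of reads, without scaling to length, since the guide arms are 21 to 23 bases long.

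The question of the first comparison was which members were found in RC-MVs at another share than in RC-cells. None of the guide arms had a ratio above 1. Of the 7 with reads in both libraries, 4 were at least 2-fold lower, beside 30.4% of all 414 miRNAs tested, and 0 were 2-fold higher, beside 33.6%. The median log2 ratio of these 7 was -1.20, against 0.08 for all miRNAs, and the other 2 guide arms, miR-18a-5p and miR-19a-3p, had no read in RC-MVs.

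The lowest ratio was that of miR-20a-5p, which was 10.3-fold lower in RC-MVs (interval 5.83 to 19.9). miR-92a-3p was 3.18-fold lower (2.68 to 3.79), miR-106b-5p 2.79-fold lower (1.73 to 4.77) and miR-17-5p 2.30-fold lower (1.70 to 3.19). For miR-20a-5p and miR-92a-3p the whole interval lay beyond 2-fold, while those of miR-106b-5p and miR-17-5p reached across it. Against the 3-read floor of RC-MVs, miR-18a-5p was at least 4.54-fold lower and miR-19a-3p at least 5.44-fold lower. The remaining guide arms stayed within 2-fold. miR-19b-3p was 1.41-fold lower (1.14 to 1.77), miR-93-5p 1.28-fold lower (1.11 to 1.48), and miR-25-3p had a ratio of 0.995 (0.917 to 1.08), an interval that spans no difference. The ratio of miR-25-3p lay outside that interval, at 0.860, with totals that left out 3 abundant miRNAs (miR-21-5p, miR-143-3p and miR-22-3p).

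Summed, the 9 guide arms were 1.53-fold lower in RC-MVs, with a ratio of 0.656 (0.618 to 0.696). The miR-17-92 guides were 2.87-fold lower (2.55 to 3.24) and the miR-106b-25 guides had a ratio of 0.907 (0.845 to 0.972). The directions of these sums held with TMM, size factors and totals without 3 abundant miRNAs. By family, the summed ratio was 0.526 for the miR-17 seed, 0.630 for the miR-19 seed and 0.729 for the miR-92 seed.

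**Figure D2:**
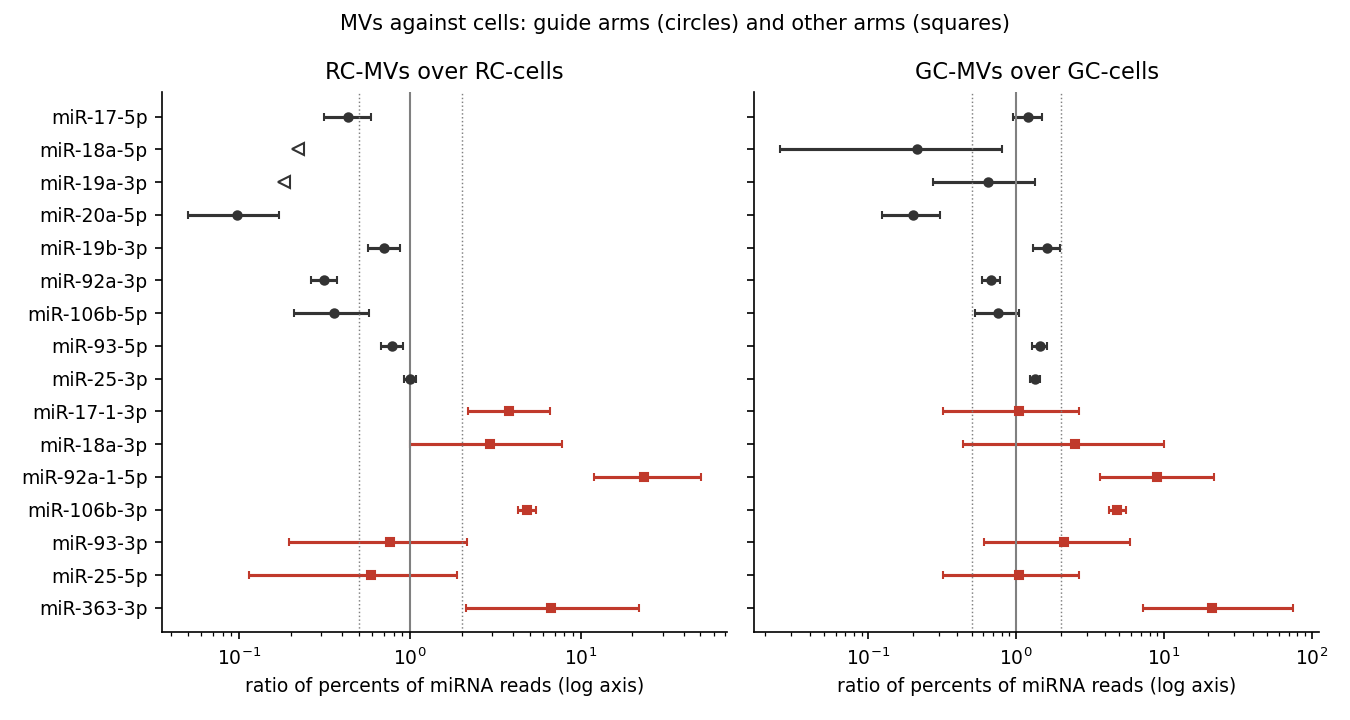
Ratio of the percent of miRNA reads in MVs to that in cells (log axes), in the resting zone (left) and the growth zone (right). Circles are the guide arms, and squares are other products with at least 10 reads in some library, except miR-92b-3p. Not drawn, miR-92b-3p was 6.29-fold lower in RC-MVs and had no read in GC-MVs. Bars are exact 95% intervals, dotted lines mark 2-fold and open triangles mark bounds where MVs had no read. miR-106b-3p is 4.83 in the left and 4.84 in the right panel, while miR-20a-5p is lowest of the measured ratios in both.

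In the growth zone, the same question was asked of GC-MVs and GC-cells. All 9 had reads in both GC-MVs and GC-cells, and 2 were at least 2-fold lower in GC-MVs, beside 25.2% of all 417 miRNAs tested, while 0 were 2-fold higher, beside 32.1%. The median log2 ratio was -0.41, against 0.13 for all miRNAs. miR-20a-5p was again the clearest, 5.01-fold lower in GC-MVs (3.29 to 8.04). miR-18a-5p was 4.70-fold lower, but this rests on 2 reads in GC-MVs and its interval reached from 1.26 to 39.6. Without miR-18a-5p and miR-19a-3p, which had fewer than 10 reads in GC-MVs, the median of the 7 guide arms left was 0.26.

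miR-92a-3p was 1.48-fold lower in GC-MVs (1.29 to 1.70). miR-19a-3p was 1.54-fold lower with an interval across no difference (0.750 to 3.67), and the ratio of miR-106b-5p was 0.755 (0.528 to 1.05). miR-17-5p had a ratio of 1.20 (0.955 to 1.49). Differences of these 3 were within counting error, but that of miR-17-5p was not when counted at Mir106a alone (1.47, 1.07 to 1.97). Ratios above 1 with intervals clear of it were found for miR-25-3p, 1.35 (1.25 to 1.46), miR-93-5p, 1.45 (1.29 to 1.62), and miR-19b-3p, 1.62 (1.31 to 1.98). None of these reached 2-fold.

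The 9 guide arms summed to a ratio of 1.10 (1.04 to 1.16) in the growth zone. Its direction depended on the scaling, since it was 0.942 with edgeR's TMM factors and 0.993 with DESeq2's size factors. The miR-17-92 guides had a ratio of 0.759 (0.689 to 0.835) and the miR-106b-25 guides of 1.34 (1.26 to 1.43), and these directions held under the other scalings tried. The family sum was 1.47 for the miR-19 seed. It was 1.05 for the miR-17 seed and 1.10 for the miR-92 seed, which became 0.898 and 0.944 with TMM.

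Comparisons between members within the same libraries do not depend on the library total. They were made as a ratio of the 2 MV over cell ratios, with an exact conditional interval. miR-17-5p and miR-20a-5p share their seed and are identical at 21 of 23 bases, differing by C1U and C12U (miR-17-5p to miR-20a-5p). The ratio of miR-17-5p was 4.46 times that of miR-20a-5p in the resting zone (2.29 to 9.34) and 6.01 times in the growth zone (3.69 to 10.1). The ratio of miR-93-5p was 8.03 times (4.46 to 15.9) and 7.24 times (4.66 to 11.8) that of miR-20a-5p. Products of the same family therefore stood apart in MVs by more than their counting error in both zones.

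Within miR-17-92, the ratio of miR-19b-3p was 7.25 times that of its neighbour miR-20a-5p in the resting zone (3.92 to 14.6) and 8.09 times in the growth zone (5.02 to 13.6). Within miR-106b-25, the ratio of miR-93-5p was 2.18 times (1.32 to 3.81) and 1.92 times (1.35 to 2.79) that of miR-106b-5p. Between the clusters, miR-92a-3p and miR-25-3p share the miR-92 seed and are identical at 18 of 21 compared bases, differing by U1C, C14U and C18U (miR-92a-3p to miR-25-3p). The ratio of miR-25-3p was 3.16 times that of miR-92a-3p in the resting zone (2.62 to 3.84) and 2.0 times in the growth zone (1.71 to 2.34). The summed miR-106b-25 guides had 2.60 times the ratio of the summed miR-17-92 guides in the resting zone (2.27 to 2.99) and 1.77 times in the growth zone (1.58 to 1.98).

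The make-up of the guide reads shows the same differences as shares of the 9 guide arms. miR-25-3p made up 37.6% of them in RC-cells and 57.0% in RC-MVs, against 38.8% in GC-cells and 47.6% in GC-MVs. miR-92a-3p made up 24.1%, 11.5%, 22.7% and 13.9%, and miR-20a-5p 6.61%, 0.983%, 7.33% and 1.33%. The guides of miR-106b-25 together held 55.0% in RC-cells and 58.5% in GC-cells, and 76.1% in RC-MVs and 71.4% in GC-MVs.

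**Figure D3:**
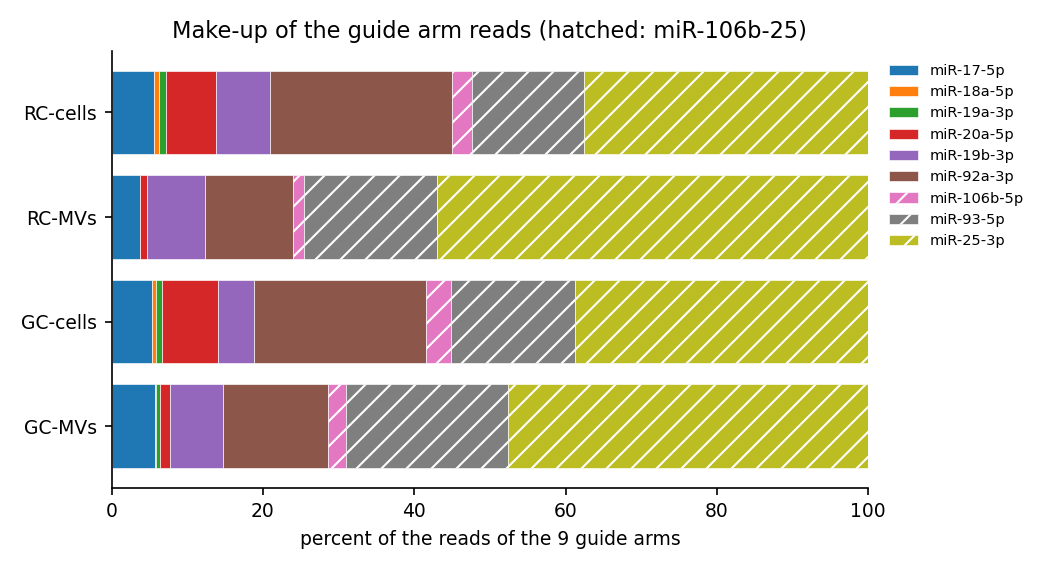
Each bar splits the reads of the 9 guide arms in a library into the percent taken by each guide arm, with the arms of miR-106b-25 hatched. The hatched part grows from 55.0% in RC-cells to 76.1% in RC-MVs and from 58.5% in GC-cells to 71.4% in GC-MVs.

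The summed other products were higher in MVs than in cells of both zones. Together they summed to 0.0126% in RC-cells and 0.0567% in RC-MVs, against 0.00949% in GC-cells and 0.0413% in GC-MVs, which is a ratio of 4.52 in the resting zone (4.07 to 5.02) and of 4.35 in the growth zone (3.84 to 4.92). Of the 10 other products with reads in both resting zone libraries, 6 were 2-fold higher in RC-MVs, beside 33.6% of all miRNAs, and 1 was 2-fold lower, beside 30.4%. In the growth zone, 6 of 8 were higher, beside 32.1%, and 0 were lower, beside 25.2%. Their median log2 ratio was 1.74 and 1.80, against 0.08 and 0.13 for all miRNAs. Among those called higher in GC-MVs, miR-18a-3p, miR-92b-5p and miR-93-3p had intervals that spanned no difference. With at least 10 reads in both, 3 of 3 products were higher in RC-MVs, beside 34.5%, and 2 of 2 in GC-MVs, beside 30.2%. The MV libraries are shallower, so this filter keeps a rare product mainly where it is high in MVs. It dropped miR-25-5p, miR-93-3p and miR-92b-3p, with 30, 31 and 37 reads in RC-cells and 3, 4 and 1 in RC-MVs. For rare products these counts therefore add no support. Most of the summed reads were those of miR-106b-3p, and only 8 of the 18 products had at least 10 reads in some library.

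The most abundant of them was miR-106b-3p. It was counted 643 times (0.00987%) in RC-cells and 528 (0.0476%) in RC-MVs, against 560 (0.00755%) in GC-cells and 359 (0.0365%) in GC-MVs. Its rank among all miRNAs went from 162 in RC-cells to 89 in RC-MVs, and from 158 in GC-cells to 94 in GC-MVs. It was 4.83-fold higher in RC-MVs (4.29 to 5.42) and 4.84-fold higher in GC-MVs (4.23 to 5.53), so that the whole interval lay beyond 2-fold in both zones.

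These counts went against the listing of miR-106b-5p as the main arm of its hairpin. The 3p arm held 68.6% of the reads of both arms in RC-cells (Wilson interval 65.5 to 71.4), 96.7% in RC-MVs (94.8 to 97.9), 58.9% in GC-cells (55.8 to 62.0) and 90.2% in GC-MVs (86.9 to 92.7). The 3p arm thus outnumbered the 5p arm 2.18 times in RC-cells, 29.3 times in RC-MVs, 1.44 times in GC-cells and 9.21 times in GC-MVs. The MV over cell ratio of the 3p arm was 13.5 times that of the 5p arm in the resting zone (8.22 to 23.3) and 6.41 times in the growth zone (4.47 to 9.39). With the 3p arm counted in place of the 5p arm, the summed miR-106b-25 arms had a ratio of 1.33 (1.25 to 1.41) in the resting zone and of 1.66 (1.57 to 1.76) in the growth zone. Both were then higher in MVs. Among the 2-fold calls of guide arms, this exchange turned 0 higher and 4 lower into 1 and 3 for RC-MVs. For GC-MVs, it turned 0 higher and 2 lower into 1 and 2, and the higher one was miR-106b-3p. Of all miRNAs, 33.6% were higher and 30.4% lower in RC-MVs, and 32.1% and 25.2% in GC-MVs.

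miR-92a-1-5p, the opposite arm of the chromosome 15 copy of miR-92a, was rarer but differed more. It was counted 11 times in RC-cells and 44 times in RC-MVs, against 11 in GC-cells and 13 in GC-MVs. Its ratio was 23.5 in the resting zone (11.9 to 50.5), and 8.92 in the growth zone (3.69 to 22.0). The arm held 0.416% of the reads of both arms in RC-cells and 23.8% in RC-MVs, against 0.425% in GC-cells and 5.33% in GC-MVs, where the reads of miR-92a-3p include those of the X-linked copy. The MV over cell ratio was 74.8 times that of miR-92a-3p in the resting zone (36.8 to 163) and 13.2 times in the growth zone (5.37 to 32.8).

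Not every opposite arm was higher in MVs. miR-17-1-3p had 37, 24, 36 and 5 reads. It was 3.81-fold higher in RC-MVs (2.18 to 6.55) and had a ratio of 1.05 in the growth zone (0.321 to 2.68). Relative to miR-17-5p, its ratio was 8.76 times in the resting zone (4.57 to 16.5) and 0.874 times in the growth zone (0.261 to 2.31). miR-93-3p, with 31, 4, 18 and 5 reads, had ratios of 0.758 and 2.10 for the resting and the growth zone, both with intervals across 1. miR-25-5p, with 30, 3, 36 and 5 reads, had ratios of 0.588 and 1.05, also with intervals across 1. Both remained under 2% of the reads of their hairpins in every library.

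miR-18a-3p had 14, 7, 9 and 3 reads. Its ratio was 2.94 in the resting zone (1.00 to 7.78) and, with an interval across 1, 2.52 in the growth zone (0.438 to 10.1). miR-18a-3p was counted in RC-MVs, where its partner miR-18a-5p had no read. The remaining opposite arms had too few reads for a ratio to carry weight, such as miR-20a-3p with 3, 1, 0 and 0 reads.

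**Figure D4:**
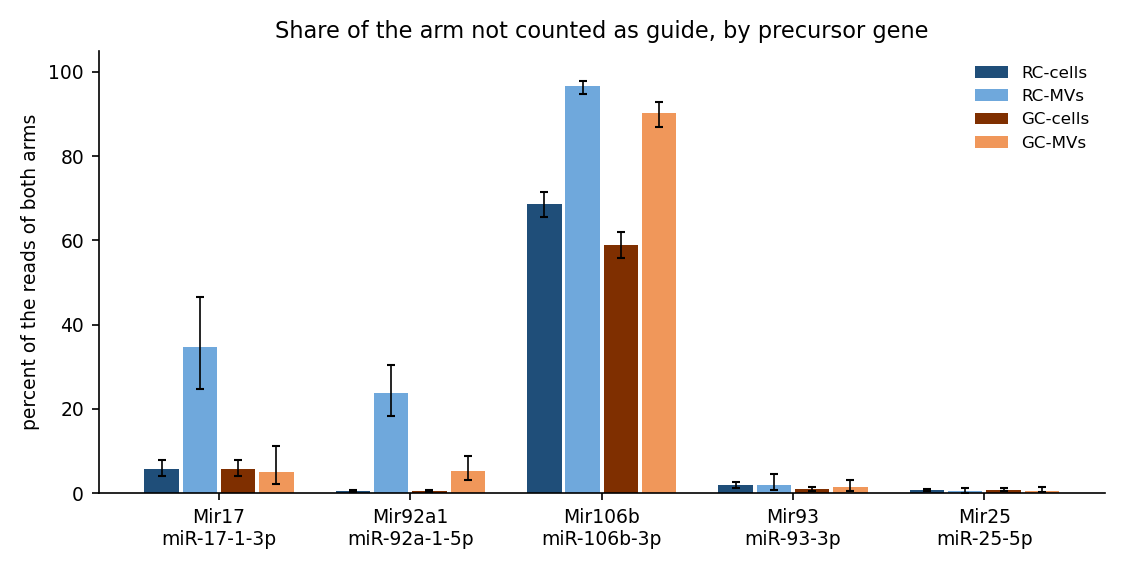
Percent of the reads of both arms that fell on the arm not listed as guide, for 5 precursor genes in the 4 libraries, with 95% Wilson intervals. The arm of Mir106b holds 58.9% to 96.7% in all 4 libraries, and those of Mir93 and Mir25 stay below 2%. That of Mir92a1 is 0.416% and 0.425% in cells, 23.8% in RC-MVs and 5.33% in GC-MVs.

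Set beside other hairpins, a difference between arms was common. Of the 76 precursors with at least 10 reads of both arms in both resting zone libraries, the less abundant arm had the higher MV over cell ratio in 49, and the median size of the difference was 1.60 on the log2 scale. Among 69 such precursors of the growth zone this held for 43, and the median size was 1.06. The arms of Mir106b differed by 3.75 and 2.68 on the log2 scale, which ranked 9th by size among the paired hairpins of each zone. There it was the more abundant arm that had the higher ratio. The arms of Mir92a1, not among those ranked, differed by more, 6.22 and 3.72.

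The cells of both zones had shares of each guide arm that lay within 2-fold of each other. The summed ratio of RC-cells over GC-cells was 1.10 (1.07 to 1.13), and 0 of 9 guide arms differed 2-fold, beside 19.4% of the 474 miRNAs tested. The guide arms ranged from 0.861 for miR-106b-5p to 1.64 for miR-19b-3p (1.47 to 1.83). The direction of the sum turned to 0.869 with TMM, 0.856 with DESeq2's size factors and 0.880 with totals that left out miR-21-5p, miR-143-3p and miR-22-3p, which are among the most abundant miRNAs, while the median of all miRNAs shifted by -0.34, -0.36 and -0.32 on the log2 scale. No direction is therefore given for the sum. miR-19b-3p remained above 1 in all 3, at 1.28 to 1.32.

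Between the vesicles, the guide arms were lower in RC-MVs than in GC-MVs. The summed ratio was 0.653 (0.606 to 0.704), and all 7 guide arms with reads in both were below 1. Of these, 3 were at least 2-fold lower, beside 14.6% of the 397 miRNAs tested, and their median log2 ratio was -0.89, against 0.15 for all miRNAs. miR-106b-5p was 2.45-fold lower (1.37 to 4.54), miR-17-5p 2.38-fold lower (1.65 to 3.48) and miR-20a-5p 2.07-fold lower (0.980 to 4.59). No interval lay wholly beyond 2-fold, so that the calls themselves are within counting error of the threshold. Counted at Mir17 alone, the locus with more reads except in GC-MVs, miR-17-5p was 1.97-fold lower and lost its call, which left 2. Counted at Mir106a alone, miR-17-5p had a ratio of 0.351 (0.201 to 0.592) and kept the call. miR-93-5p was 1.86-fold lower, miR-92a-3p 1.85-fold, miR-19b-3p 1.39-fold and miR-25-3p 1.28-fold, and miR-19a-3p was at least 3.01-fold lower against the floor. With the same 3 abundant miRNAs left out of the totals, 6 of 7 were called lower, beside 31.0% of all miRNAs with these totals, and the median of all miRNAs shifted by -0.63 on the log2 scale.

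Some other products ran against this order. Relative to GC-MVs, RC-MVs held 4.25-fold more miR-17-1-3p (1.59 to 14.3) and 3.0-fold more miR-92a-1-5p (1.59 to 6.07). With totals that left out the 3 abundant miRNAs these became 2.75 and 1.94, so that miR-92a-1-5p lost its call. miR-106b-3p had a ratio of 1.30, which turned to 0.842 with those totals. Of the 8 other products with reads in both MV libraries, 4 were 2-fold higher in RC-MVs, beside 24.7% of all miRNAs, and 0 were lower, beside 14.6%. With the abundant miRNAs left out, 2 were higher, beside 10.1% of all miRNAs, and 3 lower, beside 31.0%.

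**Figure D5:**
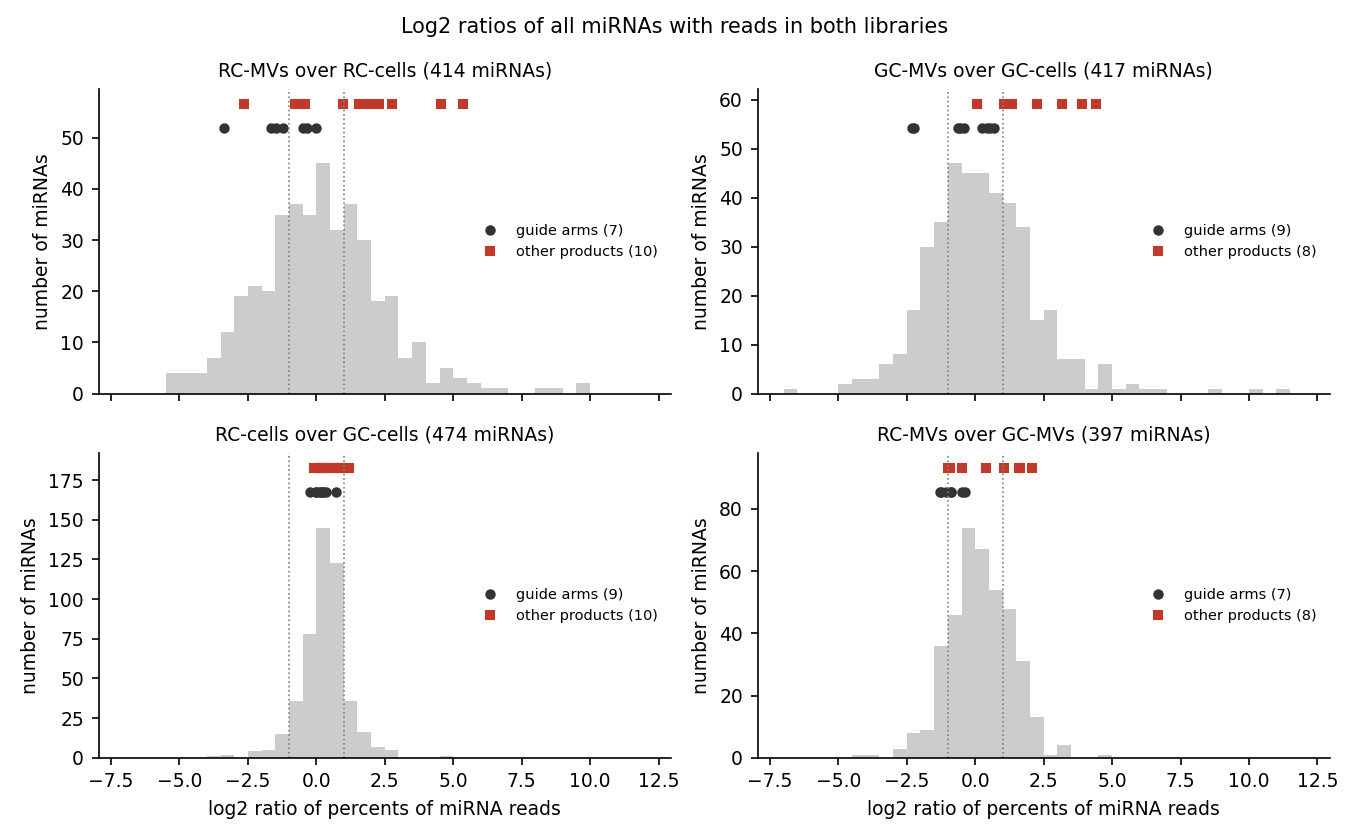
Histograms of the log2 ratio of percents for all miRNAs with reads in both libraries of a comparison, 1 panel per comparison, with the guide arms as circles and the other products as squares above them and dotted lines at 2-fold. In the panel of RC-MVs over RC-cells the 7 guide arms lie at or below 0, with a median of -1.20, and the 10 other products have a median of 1.74.

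Several guide arms are made at more than 1 locus, and their counts were also read by locus. miR-17-5p had 311, 24, 325 and 42 reads at Mir17, and 297, 21, 273 and 53 at Mir106a on chromosome X. miR-19b-3p had 388, 44, 272 and 72 reads at Mir19b1, and 393, 50, 270 and 44 at Mir19b2. Counts at loci with the same mature sequence, near-equal here in the cells, do not show how much each locus makes, since it is not known how reads that match several loci were counted. miR-92a-3p was unequal, with 2322, 118, 2181 and 195 reads at Mir92a1, and 313, 23, 394 and 36 at Mir92a2. In GC-MVs over GC-cells, miR-17-5p had a ratio of 1.47 (1.07 to 1.97) at Mir106a and of 0.975 (0.690 to 1.35) at Mir17. The interval at Mir17 spanned no difference and that at Mir106a did not. For GC-MVs over GC-cells, miR-19b-3p had a ratio of 1.998 (1.52 to 2.60) at Mir19b1 and of 1.23 (0.873 to 1.70) at Mir19b2, against 1.62 over both. For RC-MVs over RC-cells the ratios were 0.667 (0.476 to 0.912) and 0.748 (0.546 to 1.006). The intervals at Mir19b2 thus spanned no difference. Between the MVs, the ratio of miR-19b-3p was 0.542 at Mir19b1 and 1.007 at Mir19b2. At both loci of miR-92a-3p the counts in MVs were lower per library read than in cells. Reads of near-identical members such as miR-19a-3p and miR-19b-3p could also have been split by the counting.

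The products that only the X-linked cluster or Mir92b can give were few. miR-20b-5p, the X-linked relative of miR-20a-5p, had 2 reads in RC-cells, 1 in GC-cells and none in MVs. miR-363-3p, which has the miR-92 seed, had 7, 8, 5 and 14 reads, and was 6.72-fold higher in RC-MVs (2.13 to 21.8) and 21.1-fold higher in GC-MVs (7.19 to 75.0). miR-92b-3p, with the same seed, had 37, 1, 26 and 0 reads, and was 6.29-fold lower in RC-MVs (1.06 to 255). Its opposite arm miR-92b-5p had 1 read in each cell library, 7 in RC-MVs and 2 in GC-MVs. Outside the 27 products, miR-32-5p also has this seed, and it had 139, 0, 134 and 0 reads, so that neither MV library held it. It was at least 7.88-fold lower in RC-MVs, where 23.6 reads would match the share of the cells, and at least 5.92-fold lower in GC-MVs, where 17.8 would. The 5 miRNAs with the miR-92 seed thus ranged from higher in MVs, for miR-363-3p, to no read there, for miR-32-5p. The sequences of those not shown before are given for comparison of the bases after the seed.
rno-miR-363-3p: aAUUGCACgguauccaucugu
rno-miR-92b-3p: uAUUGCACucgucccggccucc
rno-miR-32-5p: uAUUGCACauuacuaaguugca

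Base content was read beside these ratios. Among guide arms, GC content was 34.8% in miR-19a-3p, 39.1% in miR-20a-5p and miR-19b-3p, 42.9% in miR-106b-5p, 43.5% in miR-18a-5p, 47.8% in miR-17-5p, 50.0% in miR-25-3p, 52.2% in miR-93-5p and 57.1% in miR-92a-3p. It was 31.8% in miR-32-5p and 63.6% in miR-106b-3p. A sequence was matched for 265 of the 293 miRNAs that had 10 or more reads in each resting zone library. Over these, the median log2 ratio of RC-MVs over RC-cells was -2.35 for the 37 with GC content under 40%, -0.61 for 96 from 40% to 50%, 0.69 for 92 from 50% to 60% and 1.35 for 40 at 60% and over. In the growth zone the medians were -1.34, -0.10, 0.53 and 1.53. Spearman's rho was 0.56 across 265 miRNAs in the resting zone and 0.51 across 251 in the growth zone, as a description of libraries that share their preparation.

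The members followed this order only in part. miR-20a-5p and miR-19b-3p have equal GC content, yet their ratios in the resting zone were 0.0976 and 0.707. miR-92a-3p has the highest GC content of the guide arms, and its log2 ratio in the resting zone was -1.67, below the lower quartile of -0.08 for miRNAs of 50% to 60%. The part of base content in the ratios of the members was not tested.

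The miRNAs whose shares over the 4 libraries were most like those of the summed guide arms were sought among 127 miRNAs with at least 100 reads in every library, by the distance between log2 percents centred over the 4 libraries. The nearest was let-7d-3p, at a distance of 0.0586, with 0.0414% in RC-cells and 0.0258% in RC-MVs, against 0.0360% in GC-cells and 0.0399% in GC-MVs. It was followed by miR-22-5p at 0.275, miR-28-5p at 0.300, let-7d-5p at 0.306 and miR-145-3p at 0.376. The median distance of all candidates was 1.52. A distance over 4 libraries describes their levels only.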

How the data were processed

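Small RNA of cells and MVs from both zones was sequenced on an Illumina instrument, with 1 library per group. Bowtie2 was used by the authors for alignment to Rnor_6.0, a rat genome build, and miARma-Seq for counting. The deposited values are raw read counts for each annotated mature miRNA locus. The versions of these programs and how reads were trimmed or, if they fit more than 1 locus, counted are not given in the sources used here. Reads matching several loci could be counted at each of them or at a single locus, which would change the summed counts.

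Counts of loci with the same name were added together, turning 774 loci into 740 names, and divided by all miRNA reads of the library, as the study's methods do. A ratio was called at 2-fold with at least 1 read in both libraries. Ratios against 0 reads were set against a floor of 3 reads. No test was made, since each group had 1 library. The groups were taken from the labels. The members, lists and comparisons were chosen with earlier results of these data known. Named are all products selected by number, those with an equal seed, listed markers and the 5 miRNAs nearest in pattern. Sequences were taken from RefSeq (GRCr8), which matched 660 of the 740 names.

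The alternatives were TMM, DESeq2's size factors, totals leaving out 3 abundant miRNAs (miR-21-5p, miR-143-3p, miR-22-3p), a pseudocount of 0.5, a minimum of 10 reads, the locus with most reads only, thinning to the smallest total in 100 draws, the sum without miR-92a-3p, an interval wholly beyond 2-fold and a 4-fold threshold. The scalings of the products that are not guide arms, and of clusters and families, the exchange of miR-106b-5p for miR-106b-3p, and ratios of single arms at 1 locus were added after the data were seen. The calculations were tested on simulated data. The programs were DESeq2 1.42.0 and edgeR 4.0.16 under R 4.3.3, and scipy 1.17.1, pandas 2.3.3, numpy 2.4.6 and matplotlib 3.10.9 under Python 3.11.15.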

Additional observations from a re-analysis of the deposited data

Results flagged for a closer look

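In 6 values the MVs of the zones moved in opposite directions relative to their cells, each with a counting interval clear of 1, and the difference between the zones was not tested because each zone had 1 library of each kind. miR-19b-3p had a ratio of 0.707 for RC-MVs over RC-cells and of 1.62 for GC-MVs over GC-cells, but at Mir19b2 alone these were 0.748 and 1.23, with intervals that spanned 1. For miR-93-5p the ratios were 0.783 and 1.45. The summed miR-106b-25 guide arms had ratios of 0.907 and 1.34, which became 1.33 and 1.66, no longer opposite, with miR-106b-3p counted in place of miR-106b-5p. The summed guide arms with the miR-19 seed had ratios of 0.630 and 1.47. Those with the miR-92 seed had ratios of 0.729 and 1.10, of which the second was 0.944 with TMM and 0.995 with size factors. The sum of all 9 guide arms had ratios of 0.656 and 1.10, of which the second fell below 1 with TMM (0.942) and with DESeq2's size factors (0.993).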

How the results depend on the processing

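A fit of MVs against cells with the zone as a block would have 2 pairs and was not made. With TMM, size factors or totals without the 3 abundant miRNAs, no single guide arm turned from a call in one direction to the other. For RC-MVs over RC-cells, the sum of 0.656 became 0.616 with TMM, 0.567 with totals without the 3 abundant miRNAs and 0.764 without miR-92a-3p, and the count of 4 became 2 where the whole interval had to lie beyond 2-fold and 1 at 4-fold, beside 19.8% and 17.1% of all miRNAs called lower by these rules. For GC-MVs over GC-cells, the sum of 1.10 became 0.942 with TMM, 0.993 with DESeq2's size factors, 1.18 without the abundant miRNAs in the totals and 1.22 without miR-92a-3p, and the count of 2 became 1 of 7 with at least 10 reads in both, beside 22.2% of all miRNAs, and 1 with the whole interval beyond 2-fold, beside 15.1%. For RC-cells over GC-cells, the sum of 1.10 became 0.869 with TMM, 0.856 with size factors and 0.880 without the abundant miRNAs, and the count of 0 became a mean of 0.31 over thinned libraries. For RC-MVs over GC-MVs, the sum of 0.653 became 0.568, 0.550 and 0.422 under these 3 scalings, and the count of 3 became 5, 5 and 6, beside 17.9%, 20.7% and 31.0% of all miRNAs called lower, while it was 0 with the whole interval beyond 2-fold, beside 4.79%, and 0 at 4-fold, beside 3.27%. With miR-106b-3p counted in place of miR-106b-5p, the sum was 0.901 for RC-MVs over RC-cells, 1.29 for GC-MVs over GC-cells and 0.776 for RC-MVs over GC-MVs. In RC-MVs, 1 guide arm was then called higher and 3 lower, beside 33.6% and 30.4% of all miRNAs. In GC-MVs, 1 was higher and 2 lower, beside 32.1% and 25.2%. The count of 3 between the MVs became 2 with this arm, beside 14.6% of all miRNAs called lower. It was also 2 with only the locus with most reads. The cause was not tested, apart from what the stricter thresholds and smaller sums set by construction. Under the 3 scalings, the ratios of single guide arms stayed within their counting intervals in 20 of 21 values for RC-MVs over RC-cells, 23 of 27 for GC-MVs over GC-cells, 6 of 27 for RC-cells over GC-cells and 14 of 21 for RC-MVs over GC-MVs, and 12 of the 27 for the cells changed direction. Of the called miRNAs, the share higher in GC-MVs was 60.5% without the abundant miRNAs and 48.1% with TMM, and the share higher in RC-MVs than in GC-MVs was 24.5% and 51.0%. The scalings of the other products and of the clusters and families, and the exchange of the miR-106b arms, were added after seeing the data. Of the other products, 5 were higher in GC-MVs than in GC-cells with TMM or size factors, beside 27.1% and 28.3% of all miRNAs, where 6 were with percents, beside 32.1%. The MV libraries hold the fewest reads, which limits what can be said of miR-18a-5p, miR-19a-3p and most opposite arms there.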
